A study of Mus musculus with 10 samples.

Results

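The suppressors of cytokine signalling (SOCS) family was followed through 10 RNA sequencing libraries made from immortalised MEFs (mouse embryonic fibroblasts, the collagen-making cells of embryonic connective tissue). Its 8 genes, Socs1 to Socs7 and Cish, were taken by symbol from the 23337 gene rows, and all 8 passed the filter on low counts. The cells were labelled Slfn2 WT or Slfn2 KO, and were left untreated or given mouse interferon-β (IFN-β, a type I interferon) at 5000 IU/ml for 6 h. The groups held 3 WT-labelled untreated libraries, 3 WT-labelled libraries with IFN-β, 2 KO-labelled untreated libraries and 2 KO-labelled libraries with IFN-β. All of the cells were immortalised and grown in the same serum-containing medium. Replicates are read here as wells plated from a WT-labelled and a KO-labelled culture. Each p-value thus measures the spread between these libraries and not between independently derived lines. Whether a replicate number marks a well, a day or a batch is not stated in the labels. How Slfn2 was deleted, how the cells were immortalised and whether each culture is a clone are not given in the sources used here. The series asks, by its title, what Slfn2 does in the type I interferon response through NF-κB.

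SOCS proteins are feedback inhibitors of cytokine receptors. A cytokine activates JAK kinases on its receptor, the kinases activate STAT transcription factors, and the STATs switch on SOCS genes whose products bind the receptor or the kinase through an SH2 domain. The SOCS box at the other end of each protein recruits elongins and a cullin, which mark the bound partner for degradation. SOCS1 and SOCS3 also carry a short kinase inhibitory region that blocks JAK catalysis directly. SOCS1 is best known as a brake on interferon receptors and SOCS3 as a brake on gp130, the receptor chain shared by interleukin-6 and its relatives, whereas CIS (the Cish product) and SOCS2 follow STAT5. SOCS4 to SOCS7 are better known for acting on growth factor and insulin receptors.

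Each library held 13565815 to 16329729 reads, and 13658 to 14311 genes had at least 1 read. Levels are normalised read counts, the gene's reads divided by a scaling factor of its library, and 3 reads equal 2.73 to 3.29 on this scale. All 9 fibroblast markers lay above that level, with summed values of 214813 to 320763 in WT-labelled and 315334 to 481804 in KO-labelled libraries. Among markers of other cells, Ptprc reached at most 1.88 and Epcam 1.03, and Cd3e and Myod1 were at 0. Of 5 endothelial markers 4 passed 3 reads in at least 1 library, Cdh5 at most at 10.3, Kdr at 9.63, Pecam1 at 5.65 and Tek at 3.999, and the list summed to 2.90 to 20.2. Of 5 skeletal muscle markers Des (at most 16.02) and Acta1 (12.7) did, with sums of 2.89 to 18.9, and of 6 epithelial markers Krt8 (4.19) alone. Of the 8 haematopoietic and macrophage markers in the files, 3 lay above 3 reads (Cd14, Cd68 and Csf1r), and their list summed to 258 to 419 in WT-labelled and 145 to 204 in KO-labelled libraries. In the neural list Sox2 reached 255 and Tubb3 ran from 462 to 1285. Slfn2 (chromosome 11, 83065112 to 83070678, GRCm38) had 18.7, 17.4 and 15.5 normalised reads in WT-labelled untreated libraries and 527, 449 and 573 with IFN-β. KO-labelled libraries had 46.1 and 34.9 untreated, then 75.0 and 171 under IFN-β. The deleted part of Slfn2 is not stated, so these reads do not check the label.

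Socs1 was the member that responded to IFN-β in both genotypes. The gene lies on chromosome 16 at 10782240 to 10785536 (GRCm38, minus strand, protein-coding). The 250 bases upstream of its RefSeq start (chr16:10785537-10785786, minus strand, GRCm38.p6) are shown because they hold the motif that interferon-activated STAT2 and IRF9 are known to bind as parts of one complex. Capitals mark 2 overlapping copies of the core of the interferon-stimulated response element, spelled here as GAAA, then any 2 bases, then GAAA. The copy GAAAGAGAAA runs from 83 to 74 bases upstream of the start and GAAACCGAAA from 77 to 68.
Socs1: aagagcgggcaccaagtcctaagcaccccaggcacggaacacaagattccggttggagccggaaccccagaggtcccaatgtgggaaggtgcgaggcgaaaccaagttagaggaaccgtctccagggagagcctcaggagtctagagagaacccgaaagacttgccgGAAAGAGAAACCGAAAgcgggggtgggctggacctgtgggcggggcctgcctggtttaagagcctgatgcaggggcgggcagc
Across 32851 RefSeq promoter windows of the same length, 2.98% held this motif on either strand. It is a match of letters and no measure of binding. Windows were found for 4 of the 8 members (Socs1, Socs3, Socs4 and Cish), and the motif was in the Socs1 window only. Among these, only the Socs1 start is the start of a transcript annotated in GENCODE M21, so a missing motif covers the RefSeq window alone.

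Socs1 had 121, 134 and 169 normalised reads in WT-labelled untreated libraries and 608, 611 and 659 with IFN-β. KO-labelled libraries had 129 and 96.1 untreated, then 1044 and 955 under IFN-β. Every IFN-β library of either genotype thus lay above every untreated library, and both KO-labelled IFN-β libraries lay above all 3 WT-labelled ones. In WT-labelled cells Socs1 rose from 141 ± 25.1 (SD, n = 3) to 626 ± 28.6 (SD, n = 3), 4.45-fold in the fit to log2 values. The log2 fold change was 2.15 ± 0.19 SE (95% confidence interval 1.73 to 2.58, adjusted p = 0.000183 by limma-trend on log2 values with a pseudocount of 1, Benjamini-Hochberg over 12313 genes). In KO-labelled cells it rose from 113 ± 23.2 to 999.7 ± 63.2 (SD, n = 2 each), 8.90-fold in that fit, a log2 fold change of 3.15 ± 0.23 SE (2.63 to 3.67, limma adjusted p = 0.000110). Both calls held when any of the 10 libraries was left out (adjusted p at most 0.00236 and 0.00181). Within pairs of the same replicate number the rise was 1.95 to 2.32 on the log2 scale in the 3 WT-labelled pairs and 3.01 to 3.30 in the 2 KO-labelled pairs. As with all bulk RNA, a rise in every cell and a rise in a larger share of cells cannot be told apart, nor can fewer cells of a type and less RNA per cell.

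Socs1 was the only one of the 8 members called higher with IFN-β in WT-labelled cells, against 2.21% of all tested genes, and none was called lower, against 0%. It was also the only one called higher in KO-labelled cells, against 1.83%, again with none lower, against 0.0162%. The median log2 fold change of the 8 members was 0.43 in WT-labelled and 0.33 in KO-labelled cells, beside -0.03 over all tested genes in each.

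Untreated, the Socs1 groups of the 2 genotypes overlapped, with a difference of -0.33 ± 0.21 SE on the log2 scale (KO-labelled minus WT-labelled, -0.80 to 0.15, limma adjusted p = 0.437). Under IFN-β the mean of KO-labelled cells was 1.60 times that of WT-labelled cells, a difference of 0.67 ± 0.21 SE (0.20 to 1.15) that did not pass (limma adjusted p = 0.102). It passed with the replicate number as a block (0.76 ± 0.17 SE, limma adjusted p = 0.012), in 7 of the 10 fits that left out a library with that block, and by DESeq2 (adjusted p = 0.0106). The interaction, which asks whether the IFN-β response itself differed between genotypes, was 1.00 ± 0.30 SE for Socs1 (0.33 to 1.67). Its unadjusted limma p was 0.00824 and its adjusted p was 1, so the difference in response did not pass over all genes. No gene passed the interaction by limma (0% of 12313) or edgeR, and 36 genes (0.292%) had an unadjusted limma p under 0.05. DESeq2 called 1 gene, Slfn2 itself (log2 interaction -3.31, adjusted p = 0.000127).

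**Figure D1:**
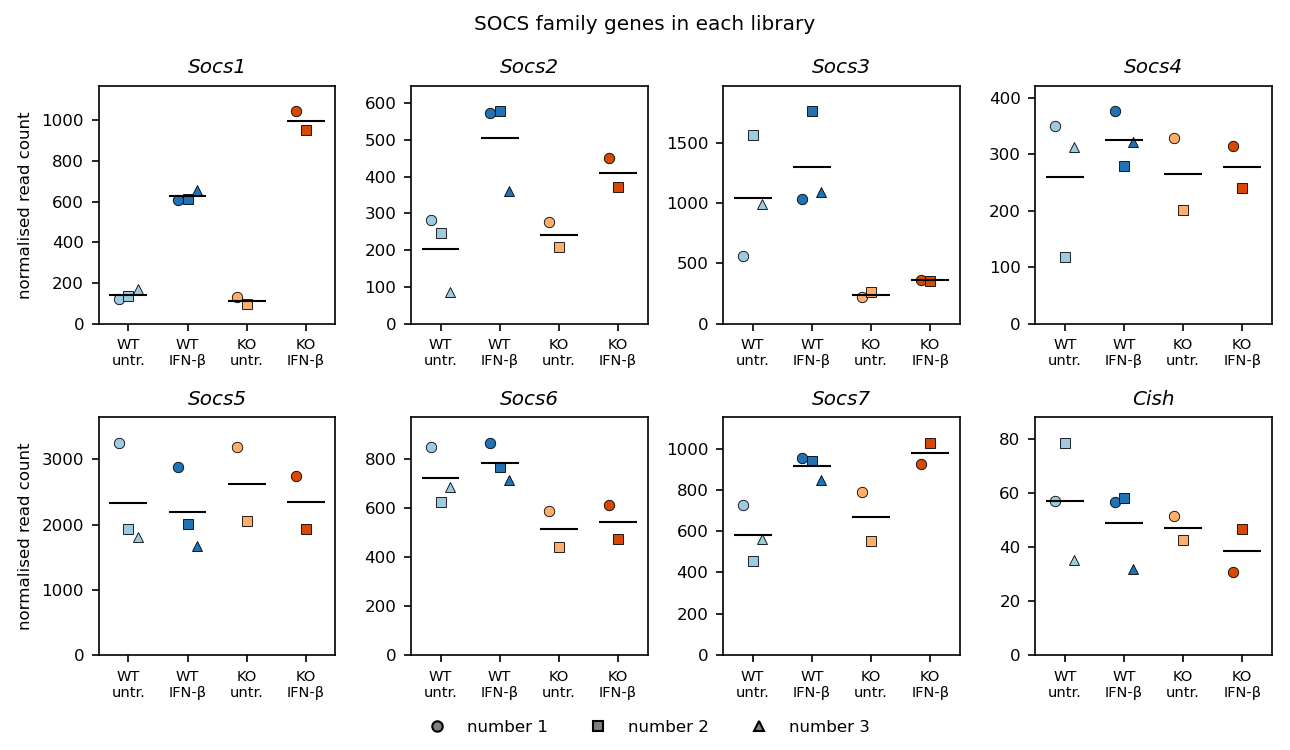
Normalised read counts (vertical axes, linear from 0) of the 8 SOCS family genes in each of the 10 libraries, by group, with symbols for the replicate number and bars for the group mean. Socs1 lies at 955 and 1044 in the KO-labelled IFN-β libraries and at 96.1 to 169 in the 5 untreated ones, and Socs3 lies at 222 to 365 in the 4 KO-labelled libraries against 567 to 1767 in the 6 WT-labelled ones.

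Socs3, the other member with a kinase inhibitory region, followed the genotype instead. It lies on chromosome 11 at 117966079 to 117970047 (GRCm38, minus strand, protein-coding). Its normalised counts were 567, 1568 and 997 in WT-labelled untreated libraries and 1037, 1767 and 1098 with IFN-β. KO-labelled counts were 222 and 260.0 untreated, then 365 and 354 under IFN-β. Every KO-labelled library thus lay below every WT-labelled one, while the 2 treatments overlapped in WT-labelled cells and did not in KO-labelled cells. Untreated, the mean was 241 ± 26.7 (SD, n = 2) in KO-labelled against 1044 ± 502 (SD, n = 3) in WT-labelled cells. The fit to log2 values gave 0.251 times the level (log2 difference -1.99 ± 0.39 SE, -2.87 to -1.12, limma adjusted p = 0.0177). With IFN-β the mean was 359 ± 8.36 (SD, n = 2) against 1300.45 ± 405 (SD, n = 3), and the fit gave 0.285 times the level (-1.81 ± 0.39 SE, -2.69 to -0.93, limma adjusted p = 0.0263).

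Socs3 was the only one of the 8 members called lower in KO-labelled cells in either state, against 3.23% of all tested genes untreated and 3.64% with IFN-β. None was called higher, against 3.00% and 2.92%. Leaving out WT-labelled untreated library 3 or either KO-labelled untreated library ended the untreated call (adjusted p up to 0.0799). The IFN-β call ended when WT-labelled IFN-β library 2 or 3, or either KO-labelled IFN-β library, was omitted (up to 0.139). With the replicate block it held in all 10 such fits for each state (adjusted p up to 0.0256 and 0.0343). The KO-labelled libraries also differed in the summed fibroblast and haematopoietic marker levels given above, and the part of these in the Socs3 difference was not tested.

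Socs3 was not called for IFN-β in either genotype. The log2 fold change was 0.39 ± 0.35 SE in WT-labelled cells (-0.39 to 1.18) and 0.58 ± 0.42 SE in KO-labelled cells (-0.38 to 1.54), each with a limma adjusted p of 1. These intervals leave room for a rise of more than 1 on the log2 scale. Within same-numbered pairs Socs3 was higher with IFN-β in 5 of 5, by 0.14 to 0.87, as were 14.4% of all tested genes. The interaction was 0.18 ± 0.55 SE (-1.05 to 1.42, limma adjusted p = 1).

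The Socs3 promoter window of RefSeq held 1 match to TTCNNNGAA, the letters of the gamma-activated site that STAT dimers such as those of STAT3 are known to bind. The match TTCTTAGAA, in capitals, lies 154 to 146 bases upstream of the RefSeq start, and the 30 bases around it are at chr11:117969501-117969530 (minus strand, GRCm38.p6). Only these are shown because the window holds an annotated exon of another Socs3 transcript.
Socs3: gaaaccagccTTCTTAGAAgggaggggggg
Of the 32851 windows, 7.02% held this motif, and the windows of Socs1, Socs4 and Cish did not. The RefSeq starts used for Socs3, Socs4 and Cish are not starts of a transcript annotated in GENCODE M21. The Cish window lies within its gene and holds annotated exon. A missing motif thus covers these windows alone and no other start of the gene.

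Known STAT3 targets were set beside Socs3, since STAT3 is the factor best known to induce it. Their list was chosen with earlier results of these data known. Of 11 tested, 4 were lower in KO-labelled cells untreated, against 3.23% of all tested genes, and the same number with IFN-β, against 3.64%. None was higher, against 3.00% and 2.92%. The median log2 difference of the 11 was -1.47 untreated and -1.13 with IFN-β, beside 0.00 over all tested genes in each. All 4 encode or drive acute-phase products. The serum amyloid gene Saa3 had 3363, 3518 and 865 normalised reads in WT-labelled untreated libraries and 0 and 1.88 in KO-labelled ones. That is a ratio of means of 2740 with a 95% counting interval of 721 to 21528, from 2 KO-labelled reads. With IFN-β the Saa3 difference was -9.65 ± 0.99 SE (limma adjusted p = 0.000776). Hp, the haemoglobin-binding haptoglobin, had 121 to 587 normalised reads in WT-labelled untreated libraries and 0 in all 4 KO-labelled ones. Against a floor of 3 reads per library it was at least 94.1-fold lower untreated and at least 91.0-fold lower with IFN-β. Lcn2, which sequesters bacterial iron carriers, differed by -7.78 ± 0.85 SE untreated (limma adjusted p = 0.00114) and -6.77 ± 0.85 SE with IFN-β (limma adjusted p = 0.00215). Cebpd, a transcription factor of the acute-phase response, differed by -3.23 ± 0.49 SE untreated (limma adjusted p = 0.00558). With IFN-β it differed by -2.82 ± 0.49 SE (limma adjusted p = 0.0106), which no longer passed in the absence of library 2 of the KO-labelled IFN-β group (0.0928). With the replicate block 9 of the 11 were lower and 1, the AP-1 gene Junb, was higher in each state. Over all tested genes 13.1% were lower and 13.5% higher untreated, and 13.3% lower and 12.7% higher with IFN-β. Stat3 itself differed by -0.40 ± 0.21 SE untreated and -0.43 ± 0.21 SE with IFN-β (limma adjusted p = 0.314 and 0.279, and 0.00774 and 0.00600 with the replicate block). Whether STAT3 or another factor has a part in the Socs3 difference was not tested.

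**Figure D2:**
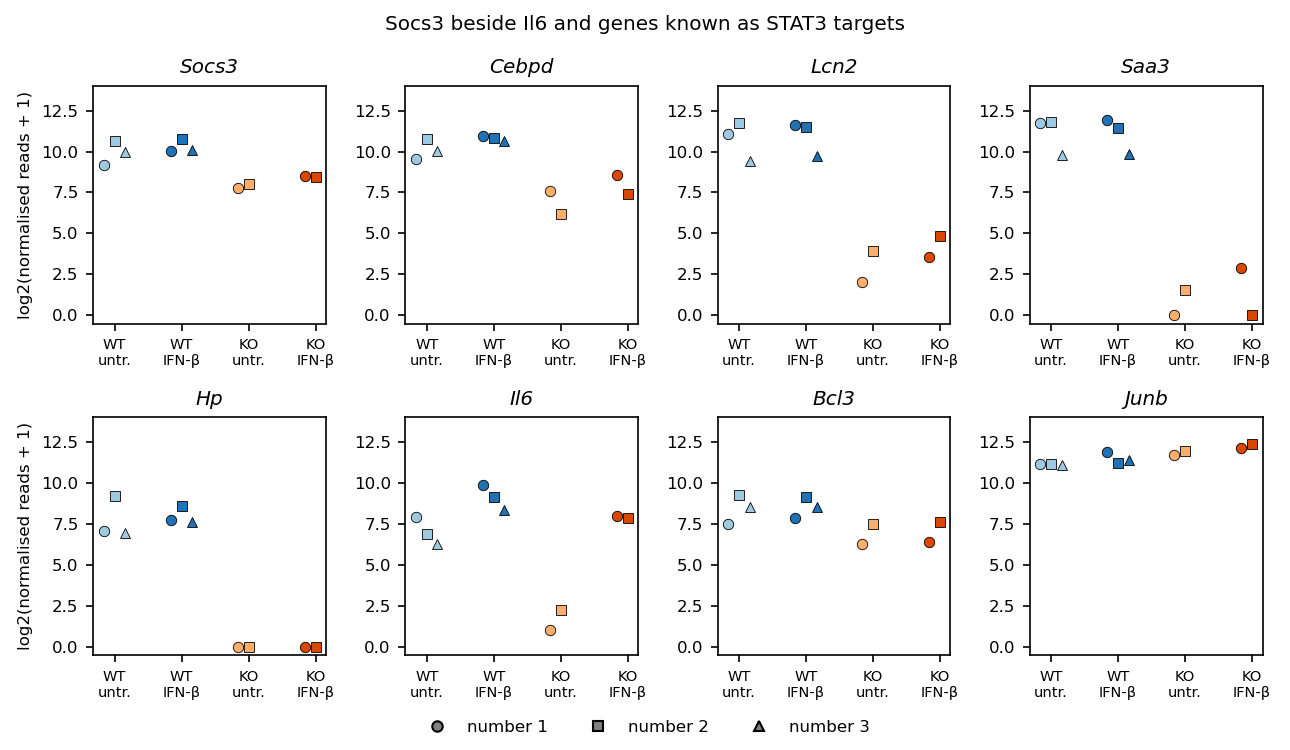
Levels of Socs3, 6 genes known as STAT3 targets and Il6, as log2(normalised reads + 1) on the vertical axes, in each library by group, with symbols for the replicate number. Hp is at 0 and Saa3 at no more than 6.34 normalised reads in the KO-labelled libraries, and Socs3 is lower there by 1.81 to 1.99 on the log2 scale. Il6 is at 1.05 and 3.77 normalised reads in the KO-labelled untreated libraries. It is at 251 and 235 in the KO-labelled IFN-β ones, below the 322 to 944 of the WT-labelled IFN-β ones.

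The cytokines and receptors that signal through gp130, the receptor chain SOCS3 binds, numbered 10 tested genes. None was higher in KO-labelled untreated cells, against 3.00% of all tested genes. Il6 was the only one lower there (-5.39 ± 0.59 SE, limma adjusted p = 0.00110), against 3.23%. It had 240.5, 119 and 76.4 normalised reads in WT-labelled untreated libraries against 1.05 and 3.77 in KO-labelled ones. With IFN-β it reached 944, 562 and 322 in WT-labelled and 251 and 235 in KO-labelled libraries. The rise in KO-labelled cells was 6.29 ± 0.64 SE (limma adjusted p = 0.000624). In WT-labelled cells it was 2.09 ± 0.53 SE and did not pass without the block (limma adjusted p = 0.115). It passed there with the block (limma adjusted p = 0.0132) and by DESeq2 (adjusted p = 0.0016). The interaction of Il6 was 4.20 ± 0.83 SE (limma adjusted p = 1). Osmr, the oncostatin M receptor, rose in KO-labelled cells with IFN-β (1.13 ± 0.22 SE, limma adjusted p = 0.0374), a call lost without 7 of the 10 libraries (up to 0.338). In WT-labelled cells the Osmr groups did not overlap either, and the difference of 0.79 ± 0.18 SE did not pass without the block (limma adjusted p = 0.0716) but passed with it (0.000595) and by DESeq2 (0.00412). The interaction of Osmr was 0.34 ± 0.29 SE (limma adjusted p = 1). Lifr, the leukaemia inhibitory factor receptor, did not pass in WT-labelled cells without the block (limma adjusted p = 0.314). It passed with the block (1.23 ± 0.15 SE, limma adjusted p = 0.00137) and by DESeq2 (adjusted p = 0.0261). Il6st, which encodes gp130, differed by -0.44 ± 0.26 SE between the genotypes untreated (limma adjusted p = 0.392). With the block 4 genes of this list were lower in KO-labelled cells in each state, against 13.1% of all tested genes untreated and 13.3% with IFN-β. None was higher untreated, against 13.5%, and 1 was higher with IFN-β, against 12.7%.

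Of the STAT5-linked members, Socs2 lies on chromosome 10 at 95385362 to 95417180 (minus strand) and is best known for restraining the growth hormone receptor. It had 282, 246 and 84.6 normalised reads in WT-labelled untreated libraries and 575, 578 and 361 with IFN-β. Its KO-labelled values were 276 and 207 untreated, then 451 and 372 under IFN-β. In both genotypes the IFN-β libraries lay above the untreated ones. The log2 fold change in WT-labelled cells was 1.44 ± 0.43 SE (0.48 to 2.40), which did not pass (limma adjusted p = 0.226). With the replicate block the same value had an SE of 0.20 (0.99 to 1.89) and passed (limma adjusted p = 0.00266), also in all 10 fits that left out a library (0.00363 to 0.0259). In KO-labelled cells it was 0.77 ± 0.52 SE (-0.40 to 1.95, limma adjusted p = 1). Within same-numbered pairs it was higher with IFN-β in 5 of 5, by 0.71 to 2.08 on the log2 scale, as were 14.4% of all tested genes. The interaction was -0.67 ± 0.67 SE (-2.19 to 0.85, limma adjusted p = 1), so a difference in response was not shown.

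Cish (chromosome 9, 107296026 to 107302784, plus strand), whose product binds STAT5-activating receptors, was the least abundant member. Its counts were 57.1, 78.4 and 35.1 in WT-labelled untreated libraries and 56.6, 58.0 and 31.8 with IFN-β. KO-labelled counts were 51.4 and 42.4 untreated, then 30.6 and 46.5 under IFN-β. The groups overlapped in all comparisons, and the IFN-β log2 fold change was -0.19 ± 0.39 SE in WT-labelled cells (-1.06 to 0.68, limma adjusted p = 1) and -0.30 ± 0.47 SE in KO-labelled cells (-1.36 to 0.77, limma adjusted p = 1). Exons of Cish overlap 2 genes on the other strand, Gm17040 and Gm17041, and the strand setting of the counting is not given in the sources used here. Of 7 receptors that use STAT5 only 3 passed the filter, none with a call for IFN-β. Il2rg, the common gamma chain of lymphocyte cytokine receptors, was lower in KO-labelled cells from few reads, with a WT-labelled to KO-labelled ratio of 38.3 untreated (95% counting interval 7.05 to 1640, 1 KO-labelled read) and 24.8 with IFN-β (6.25 to 197, 2 reads). Both Il2rg calls were lost when any of 3 libraries was left out.

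Socs7 (chromosome 11, 97362551 to 97398542, plus strand), known to bind adaptor proteins of insulin and growth factor receptors, had 729, 454 and 564 normalised reads in WT-labelled untreated libraries and 955, 941 and 850.2 with IFN-β. Its KO-labelled values were 788 and 552 untreated, then 927 and 1028 under IFN-β. The IFN-β libraries lay above the untreated ones in both genotypes. The log2 fold change was 0.68 ± 0.20 SE in WT-labelled cells (0.22 to 1.13, limma adjusted p = 0.242) and 0.56 ± 0.25 SE in KO-labelled cells (0.00 to 1.13, limma adjusted p = 1), and neither passed. With the block the WT-labelled value had a limma adjusted p of 0.0538, and it passed in 3 of the 10 fits that left out a library. Same-numbered pairs were higher with IFN-β in 5 of 5, by 0.23 to 1.05, as they were for 14.4% of all tested genes.

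With IFN-β, 3 members had non-overlapping higher groups in WT-labelled cells (Socs1, Socs2 and Socs7), against 7.48% of all tested genes. In KO-labelled cells 4 did (the same 3 and Socs3), against 10.7%. No member had non-overlapping lower groups in either genotype, against 4.11% and 9.67%. With the replicate block 2 members were called higher in WT-labelled cells, Socs1 and Socs2, against 4.68% of all tested genes, and Socs1 alone in KO-labelled cells, against 3.37%. None was called lower with the block, against 0.268% and 0.114%.

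Socs6 (chromosome 18, 88665224 to 88927481, minus strand), known for its action on the KIT and insulin receptors, was lower in the KO-labelled libraries in a smaller measure than Socs3. Its counts were 851, 627 and 689 in WT-labelled untreated libraries and 867, 769.8 and 717 with IFN-β. KO-labelled counts were 588 and 442 untreated, then 611 and 474 under IFN-β. Socs6 was not called for IFN-β in either genotype. Its same-numbered pairs were higher with IFN-β in 5 of 5, by 0.03 to 0.29 on the log2 scale, as they were for 14.4% of all tested genes. All 4 KO-labelled libraries lay below all 6 WT-labelled ones. The log2 difference was -0.49 ± 0.21 SE untreated (-0.96 to -0.02, limma adjusted p = 0.217) and -0.54 ± 0.21 SE with IFN-β (-1.01 to -0.07, limma adjusted p = 0.176). With the replicate block it passed in both states (-0.54 ± 0.11 SE, limma adjusted p = 0.0110 and -0.58 ± 0.11 SE, limma adjusted p = 0.00774). Each blocked call was lost in 2 of the 10 fits that left out a library (adjusted p up to 0.105 and 0.0755).

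Between genotypes, 2 members had non-overlapping lower groups in KO-labelled untreated cells (Socs3 and Socs6), against 15.9% of all tested genes, and none had higher ones, against 15.7%. With IFN-β the same 2 did, against 20.4%, and Socs1 alone was separate and higher, against 20.0%. With the replicate block 2 members were lower untreated, against 13.1% of all tested genes, and none higher, against 13.5%. With that block 2 members given IFN-β were lower, against 13.3%, and 1 higher, against 12.7%. The median log2 difference of the 8 members was -0.04 untreated and -0.25 with IFN-β, beside 0.00 over all tested genes in each. The untreated and IFN-β differences between genotypes share no library, and each library also enters an IFN-β comparison within its genotype.

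Socs4 and Socs5, known to act on the epidermal growth factor receptor, were called neither for IFN-β nor between genotypes. Socs5 (chromosome 17, 87107679 to 87137839, plus strand) had 3251, 1937 and 1809 normalised reads in WT-labelled untreated libraries and 2885, 2011 and 1666 with IFN-β. KO-labelled Socs5 values were 3186 and 2054 untreated, then 2747 and 1932 under IFN-β. The library numbered 1 was the highest of each group. The IFN-β log2 fold change of Socs5 was -0.08 ± 0.30 SE in WT-labelled cells (-0.75 to 0.59) and -0.15 ± 0.36 SE in KO-labelled cells (-0.98 to 0.67), each with a limma adjusted p of 1. Socs4 (chromosome 14, 47276931 to 47296102, plus strand) had 350.3, 118 and 313 in WT-labelled untreated libraries and 376, 279.9 and 323 with IFN-β. KO-labelled libraries had 329 and 202 untreated, then 315 and 241 under IFN-β. The library numbered 2 was the lowest of each group. Its IFN-β log2 fold change was 0.46 ± 0.40 SE in WT-labelled cells (-0.44 to 1.36) and 0.09 ± 0.49 SE in KO-labelled cells (-1.0 to 1.19), each with a limma adjusted p of 1.

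**Figure D3:**
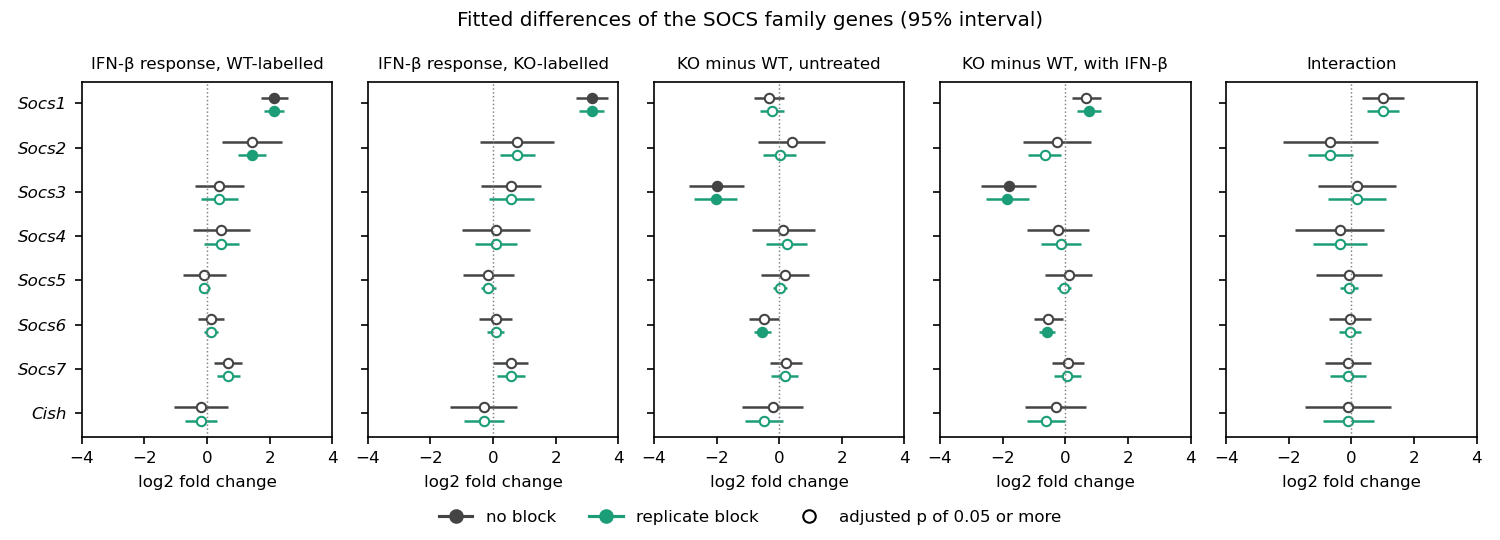
Log2 differences of each SOCS family gene (points, horizontal axes) with 95% confidence intervals (lines) for IFN-β in each genotype, KO-labelled minus WT-labelled in each state, and the interaction, from the limma fits without (grey) and with (green) the replicate block; filled points have an adjusted p under 0.05. Without the block the filled points are those of Socs1 for IFN-β in both genotypes (2.15 and 3.15) and of Socs3 between genotypes in both states (-1.99 and -1.81), and the intervals of Socs4, Socs5 and Cish include 0 in every panel.

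Members were also compared by replicate number, in the fit with the number as a block. After the groups were accounted for, number 2 was lower than number 1 in 3 of the 8 members, against 23.3% of all tested genes, and none was higher, against 25.3%. Socs4 was lower by -0.77 ± 0.21 SE (log2 scale, limma adjusted p = 0.0160), Socs5 by -0.60 ± 0.07 SE (limma adjusted p = 0.000455) and Socs6 by -0.35 ± 0.08 SE (limma adjusted p = 0.00997). All 3 calls held when any library was left out. Socs3 was 0.60 ± 0.22 SE higher in number 2 and lay at the threshold (limma adjusted p = 0.0505, and 0.0431 by edgeR). For Socs1 the difference was -0.10 ± 0.12 SE (limma adjusted p = 0.523). In either direction 48.6% of all tested genes were called by number, so these 3 calls do not set the members apart. What a number marks is not stated in the labels.

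To order the members by level, normalised reads were divided by the length of their merged exons (GENCODE M21, GRCm38). In WT-labelled untreated cells Socs5 and Socs3 led, at 363 ± 124 and 361 ± 174 normalised reads per kilobase (SD, n = 3), and their ranges overlapped. They were followed by Socs7 (80.1), Socs6 (63.6), Socs1 (48.6), Socs4 (37.9), Socs2 (21.4) and Cish (8.86), and of neighbours in this order only Socs3 and Socs7 had ranges that did not overlap. With IFN-β Socs3 (449.8) and Socs5 (341) overlapped at the top and Socs1 (215) was the third, apart from both neighbours. In KO-labelled untreated cells Socs5 (408) stood apart from the rest, and Socs7 (92.3) and Socs3 (83.4) overlapped behind it. With IFN-β Socs5 (365) and Socs1 (344) overlapped at the top of the KO-labelled order, and Socs7 (135) and Socs3 (124) came after them without overlap. The least abundant was Cish in all 4 groups. Dividing by the longest transcript instead left Socs5, Socs3 and Socs1 in their places among the leading 3 of the WT-labelled IFN-β order. It swapped Socs7 with Socs3 in KO-labelled IFN-β cells, and it moved only places from the third down.

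As a share of the family's summed level per kilobase, Socs1 made up 5.01 ± 1.37% in WT-labelled untreated cells and 16.7 ± 2.87% with IFN-β (SD, n = 3 each). In KO-labelled cells it made up 5.25 ± 0.16% untreated and 31.2 ± 1.56% with IFN-β (SD, n = 2 each). Socs3 made up 36.5 ± 15.9% and 34.1 ± 7.91% in WT-labelled cells, against 11.8 ± 4.03% and 11.3 ± 1.02% in KO-labelled cells. Socs5 made up 36.8% and 26.0% in WT-labelled and 54.8% and 32.8% in KO-labelled cells. The ratio of Socs1 to Socs3 per kilobase was 0.212, 0.0847 and 0.169 in WT-labelled untreated libraries and 0.582, 0.344 and 0.596 with IFN-β. KO-labelled ratios were 0.577 and 0.367 untreated, then 2.84 and 2.69 under IFN-β. Socs1 thus exceeded Socs3 in the 2 KO-labelled IFN-β libraries and in no other.

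**Figure D4:**
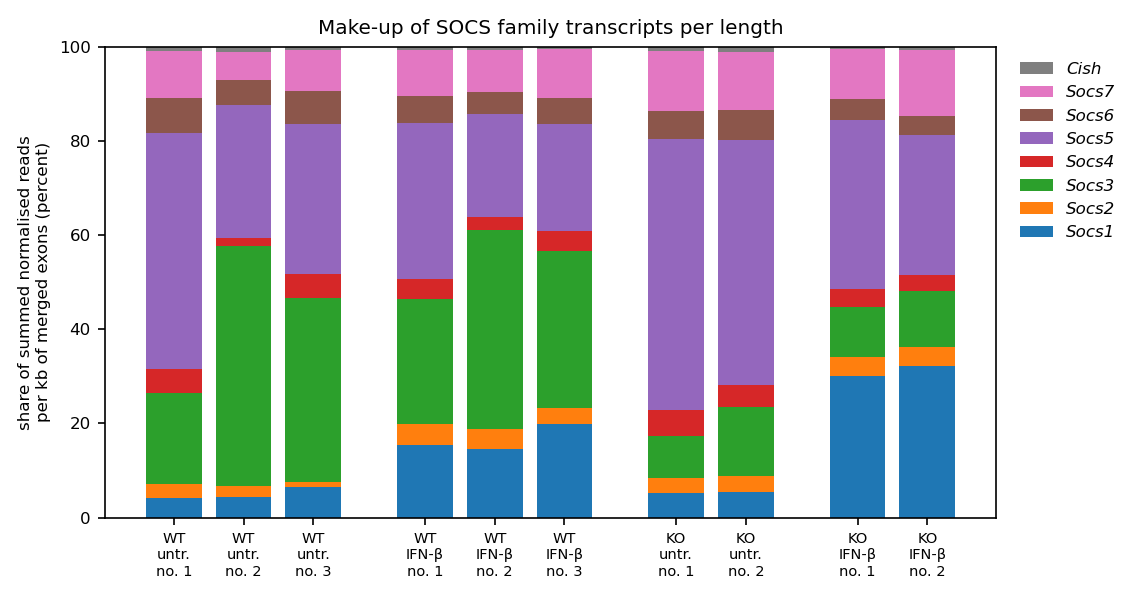
Share of the family's summed normalised reads per kilobase (percent, stacked bars that each reach the whole) held by each SOCS family gene in each of the 10 libraries, in order of group. The Socs1 share is 30.1 and 32.3% in the KO-labelled IFN-β libraries and 14.6 to 19.9% in the WT-labelled ones, and the Socs3 share is 8.91 to 14.6% in KO-labelled libraries and 19.4 to 51.0% in WT-labelled ones.

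Upstream of the family, none of 9 tested interferon receptor and JAK kinase genes was called with IFN-β in either genotype without the replicate block. With the block Jak2 alone was higher in each, against 4.68% of all tested genes in WT-labelled and 3.37% in KO-labelled cells. Jak2, a kinase of gp130 and type II interferon receptors, had 526, 604 and 713 normalised reads in WT-labelled untreated and 996, 1523 and 1292 in IFN-β libraries. KO-labelled Jak2 counts were 347 and 562 untreated, then 568 and 1279 under IFN-β, so neither genotype had overlapping groups. Its log2 fold change was 1.04 ± 0.32 SE in WT-labelled cells (limma adjusted p = 0.264, blocked 0.00739) and 0.95 ± 0.39 SE in KO-labelled cells (limma adjusted p = 0.855, blocked 0.0442). The type I interferon receptor chains Ifnar1 and Ifnar2 changed by -0.02 ± 0.16 SE and 0.08 ± 0.21 SE on the log2 scale in WT-labelled cells, and the kinases Jak1 and Tyk2 by 0.22 ± 0.13 SE and -0.24 ± 0.34 SE (limma adjusted p = 1 for each). In KO-labelled cells with IFN-β, 2 of the list were lower than in WT-labelled cells, against 3.64% of all tested genes, and none was higher, against 2.92%. The 2 were Il10rb (-1.37 ± 0.28 SE, limma adjusted p = 0.0232) and Ifngr2 (-0.85 ± 0.19 SE, limma adjusted p = 0.0290), receptor chains for interleukin-10 and type II interferon. The calls were lost without 4 and 5 of the libraries (adjusted p up to 0.142 and 0.214). Ifnar1 differed by -0.55 ± 0.18 SE there (limma adjusted p = 0.110, and 0.0119 with the replicate block). That block gave 5 of the 9 as lower with IFN-β and 4 untreated, against 13.3% and 13.1% of all tested genes. It gave 2 as higher in each state, against 12.7% with IFN-β and 13.5% untreated.

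Among the transcription factors that act between the receptor and Socs1, Stat2 and its partner Irf9 rose with IFN-β in both genotypes. Stat2 rose by 4.31 ± 0.42 SE in WT-labelled cells (limma adjusted p = 0.000371) and 5.26 ± 0.52 SE in KO-labelled cells (limma adjusted p = 0.000506). Irf9 rose by 3.02 ± 0.22 SE and 3.35 ± 0.27 SE (limma adjusted p = 6.5e-05 and 0.000154). Irf1, an interferon-induced activator, changed by 1.78 ± 0.46 SE and 2.24 ± 0.56 SE without passing (limma adjusted p = 0.124 and 0.137). It passed in both genotypes with the block (limma adjusted p = 0.000535 and 0.000551) and by DESeq2 (adjusted p = 0.00766 and 0.00569). Stat2, Irf9 and Irf1 were not called between genotypes, with or without the block.

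Other brakes on JAK-STAT signalling numbered 10 tested genes, of which Usp18 alone rose with IFN-β in both genotypes. Over all tested genes 2.21% were called higher in WT-labelled and 1.83% in KO-labelled cells. Usp18, which displaces JAK1 from the interferon receptor, rose by 9.94 ± 0.74 SE in WT-labelled cells (limma adjusted p = 6.94e-05). In KO-labelled cells it went from 2 reads to 6838 and 6462 normalised reads, a ratio of 6681 with a 95% counting interval of 1851 to 55218. No JAK-STAT phosphatase or PIAS gene of the list was called in these comparisons or between genotypes without the block. With it Pias4 was higher in KO-labelled untreated cells (0.47 ± 0.13 SE, limma adjusted p = 0.0272), as were 13.5% of all tested genes. None of the 8 tested SOCS-box ligase partners, among them the elongin genes under their older symbols Tceb1 and Tceb2, was called with IFN-β or, without the block, between genotypes. With it Ube2f, a conjugating enzyme for the cullin modifier NEDD8, was lower in KO-labelled cells untreated (-0.40 ± 0.12 SE, limma adjusted p = 0.0439) and with IFN-β (-0.43 ± 0.12 SE, limma adjusted p = 0.0340). So were 13.1% and 13.3% of all tested genes, so Pias4 and Ube2f do not set their lists apart. Of 16 tested genes for other SOCS-box proteins Spsb1, an adaptor of the same ligase, rose with IFN-β by 1.45 ± 0.25 SE in WT-labelled cells (limma adjusted p = 0.0157) and 1.91 ± 0.31 SE in KO-labelled cells (limma adjusted p = 0.0119). These Spsb1 calls stand against 2.21% and 1.83% of all tested genes, and were lost without 4 and 2 of the libraries (adjusted p up to 0.0939 and 0.128). Spsb4 was lower in KO-labelled untreated cells (-1.88 ± 0.44 SE, limma adjusted p = 0.0402), a call lost without 9 of the 10 libraries (up to 0.193). With the block 2 genes of this list were higher with IFN-β in each genotype (Spsb1 and Asb13), against 4.68% of all tested genes in WT-labelled and 3.37% in KO-labelled cells. Between genotypes it gave 4 as lower and 1 as higher untreated, and 2 as lower and 1 as higher with IFN-β. Over all tested genes the shares were 13.1% lower and 13.5% higher untreated, and 13.3% lower and 12.7% higher with IFN-β.

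Growth factor receptors and adaptors, the partners of SOCS4 to SOCS7, numbered 12 tested genes and none was called with IFN-β. Igf1r, the receptor of insulin-like growth factor, was lower in KO-labelled cells by -0.66 ± 0.14 SE untreated (limma adjusted p = 0.0234) and -0.64 ± 0.14 SE with IFN-β (limma adjusted p = 0.0257). These calls were lost without 3 and 5 of the libraries (adjusted p up to 0.164 and 0.200). Igf1r was the only gene of the list called lower, against 3.23% of all tested genes untreated and 3.64% with IFN-β. With the block 3 genes of the list were lower in each state, against 13.1% of all tested genes untreated and 13.3% with IFN-β. None was higher, against 13.5% and 12.7%.

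The genes whose levels across the 10 libraries were most like each called member were sought among 11375 tested genes, by Pearson r of log2 of the normalised count plus 1. The libraries share replicate numbers and groups, so these values are descriptions. Socs1 was most like Pml (0.99), Dll1 (0.98) and Rnf139 (0.98). Pml, which encodes the scaffold of nuclear bodies, had 760, 899.5 and 930.1 normalised reads in WT-labelled untreated and 3616, 3767 and 3623 in IFN-β libraries, and in KO-labelled cells 715 and 781 untreated, then 4241 and 4530.0 under IFN-β. Socs3 was most like Tmie, Hlx and Serpina3g (0.98, 0.98 and 0.97). Serpina3g, a serine protease inhibitor, had 48.3, 559 and 126 normalised reads in WT-labelled untreated libraries, 232, 756 and 303 with IFN-β, and at most 1.82 in KO-labelled ones. Socs4 was most like Ube3a (1.00), Zbtb41 and Ccnt1 (0.99 each), Socs5 like Galntl4, Fam185a (0.99 each) and H47 (0.98), and Socs6 like Dgkd, Cldn12 and Rnf138 (0.98 each). Galntl4 had 159 to 1050 normalised reads and, like Socs5, its highest value of each group in the library numbered 1. Among the members themselves the highest values were 0.81 between Socs1 and Socs7, 0.74 between Socs2 and Socs7, and 0.67 between Socs1 and Socs2.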

How the data were processed

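Total RNA was sequenced in 10 directional libraries (TruSeq Stranded chemistry, per the labels). Per the submitters' processing notes, reads were processed with cutadapt 1.13, STAR 2.5.2a, HTSeq and DESeq2 on mm10; the annotation, strand setting and filters are not given in the sources used here. The deposited signal is scaled reads per gene, each library divided by its own factor by the authors, judged from the values: 100% were whole multiples of what 1 read is worth, within 0.001 reads, so whole reads were recovered. Counting intervals and floors cover counting error only.

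The planned count test for raw counts was replaced by limma-trend (limma 3.58.1, R 4.3.3), since the unit is a scaled signal. It was fitted to log2 of the normalised count plus a pseudocount of 1, with 4 group means over all 10 libraries, after filterByExpr (edgeR 4.0.16, minimum count 10) left 12313 genes. Genes were called at a two-sided Benjamini-Hochberg adjusted p under 0.05; fold changes understate low genes. On the recovered reads edgeR's quasi-likelihood test called 259 and 205 genes for IFN-β in WT-labelled and KO-labelled cells and 710 and 748 between genotypes. The script was tested on simulated data.

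The replicate numbers pair the libraries by the data alone: deviations from group means correlated at 0.48 to 0.87 over 13 same-numbered pairs and at -0.87 to 0.32 over 24 others. These ranges are not independent, since deviations sum to 0 within a group and the 2 libraries of a KO-labelled group mirror each other. Between the WT-labelled groups alone the same-numbered values were 0.79, 0.61 and 0.67, and the others -0.54 to 0.0095. The members and lists were chosen with earlier results of these data known. Named genes are the members, Slfn2, up to 4 called genes of each list by size of change, the type I interferon receptor, JAK and STAT genes, and the 3 genes most like each called member; Stat3, Il6st and other values outside that rule were chosen after their values were seen. Genes of 1 to 3 reads in a group are given by the ratio of means with a 95% Poisson interval. Ifnlr1, Adgre1 and the newer elongin symbols were not matched. Some genes of the lists are not reported here. Promoters are RefSeq windows on GRCm38.p6, and those of 4 of 8 members were searched, with chromosome 18 (Socs6) left out of the member search. Alternatives were pseudocounts of 0.5 and 5, no filter, TMM scaling, edgeR, DESeq2 1.42.0, the replicate block and leaving out each library.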

Additional observations from a re-analysis of the deposited data

How the results depend on the processing

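No member changed direction past the threshold under any alternative run. For IFN-β in each genotype, for the genotypes in each state and for the interaction, the counts of members called were the same under pseudocounts of 0.5 and 5, without the filter, with TMM scaling and by edgeR. DESeq2 called 2 members (Socs1 and Socs3) between genotypes with IFN-β. The replicate block called 2 with IFN-β in WT-labelled cells, 2 between genotypes untreated and 3 with IFN-β, and it changed no other call of a member. Leaving out a library gave 0 to 1 members between genotypes in each state without the block. With the block it gave 2 to 3 for IFN-β in WT-labelled cells, 1 to 2 between genotypes untreated and 1 to 3 with IFN-β. The causes were not tested. For the replicate number, leaving out a library gave 3 to 4 members, and Socs3 passed with a pseudocount of 5 (limma adjusted p = 0.0496), by edgeR (0.0431) and by DESeq2 (0.0101). Cish, at 30.6 to 78.4 normalised reads, is the member with the least depth behind it.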
